A study of Mus musculus with 208 samples.

Results

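Tcf7l2, Lef1, Ntng1, Rora and Prkcd are 5 genes that mark the thalamus, the relay structure that lies directly above the hypothalamus. They were taken by gene symbol from the deposited tables and are 5 of the 46403 genes listed for each brain region. RNA was sequenced from NeuN+ nuclei, nuclei sorted for the neuronal protein NeuN, of adult wild type C57BL/6NTac mice. Tissue was punched from the striatum, the prefrontal cortex (PFC), the hippocampus and the hypothalamus. All groups shared this background. Dams carried an osmotic minipump with morphine sulfate at 10 mg/kg per day or with saline during gestation, the pups went to drug-naive foster mothers, and they then received morphine at 10 mg/kg or saline in repeated daily injections from postnatal day 1 to 14. As adults they received lipopolysaccharide (LPS, a bacterial wall component that provokes an immune response) or saline, and tissue was taken 2 h later. The first word of a group name gives the perinatal drug and the second the adult challenge.

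The hypothalamus gave 51 libraries from 51 animals of 17 litters: 14 MOR-SAL, 14 MOR-LPS, 11 SAL-SAL and 12 SAL-LPS. The first number of a library's name is its litter and the second the animal, as the study's sample list reads them, since the labels themselves call the pair only a replicate. The study's methods count more distinct litters than these numbers give. Each litter belonged to 1 perinatal drug. P-values treat libraries of the same litter as separate. Total counts ran from 7673 to 35077048 per library, with a median of 5543589. Under 0.5 of that median lay 3 libraries: SAL-LPS 1-4 with 7673 counts, SAL-SAL 4-3 with 160755 and SAL-SAL 1-1 with 1735379. The Y-linked genes went against the labelled sex in 3 others, MOR-SAL 12-1, MOR-SAL 15-0 and SAL-LPS 10-0. Results are given with all libraries and, below, without them. Levels are CPM, the counts of a gene scaled by the library total. A gene was called at an adjusted p under 0.05 (edgeR's quasi-likelihood test, Benjamini-Hochberg adjustment over all genes tested). In tissue of many cell types, fewer cells of a type and less RNA per cell cannot be told apart.

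The thalamus relays sensory and motor signals to the cortex, and its excitatory relay neurons carry a gene program that the neighbouring hypothalamus largely lacks. Tcf7l2 and Lef1 encode HMG-box transcription factors that work with beta-catenin in Wnt signaling. TCF7L2 sustains the identity of thalamic relay neurons after birth. Rora encodes the nuclear receptor ROR alpha, which binds DNA at AGGTCA elements. Ntng1 encodes netrin-G1, a membrane-anchored protein on thalamocortical axons that binds the ligand NGL-1, the product of Lrrc4c. Prkcd encodes protein kinase C delta, a diacylglycerol-activated kinase abundant in thalamic relay neurons. None of these genes is restricted to the thalamus. Rora in particular is also transcribed in the cortex.

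In mm10 the genes lie apart from each other. Tcf7l2 (ENSMUSG00000024985.19) spans chr19:55741820-55933654 on the plus strand and Lef1 (ENSMUSG00000027985.14) spans chr3:131110471-131224356 on the plus strand. Ntng1 (ENSMUSG00000059857.15) is at chr3:109780040-110144011 on the minus strand, Rora (ENSMUSG00000032238.17) at chr9:68653786-69388246 on the plus strand and Prkcd (ENSMUSG00000021948.17) at chr14:30595354-30626210 on the minus strand. Lef1 shares 1208 exon bases with the antisense gene Gm43352 and Rora shares 82 with the antisense gene Gm15511. The strand setting of the counting is not given in the sources used here, so reads from those bases cannot be told apart.

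The 250 bases before the annotated start are shown for the 3 genes called lower at baseline in the hypothalamus (MOR-SAL against SAL-SAL) (RefSeq, GRCm38.p6, read 5′ to 3′ along the gene). Capitals mark the reverse complement of the TCF/LEF core CTTTGA, the only match found.
Ntng1, chr3:110143473-110143722, minus strand: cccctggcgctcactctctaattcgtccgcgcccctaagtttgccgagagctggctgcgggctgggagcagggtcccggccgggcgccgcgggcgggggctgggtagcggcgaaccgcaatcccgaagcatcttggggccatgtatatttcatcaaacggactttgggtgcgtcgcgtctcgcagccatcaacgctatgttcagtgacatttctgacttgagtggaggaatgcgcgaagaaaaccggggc
Rora, chr9:68653536-68653785, plus strand: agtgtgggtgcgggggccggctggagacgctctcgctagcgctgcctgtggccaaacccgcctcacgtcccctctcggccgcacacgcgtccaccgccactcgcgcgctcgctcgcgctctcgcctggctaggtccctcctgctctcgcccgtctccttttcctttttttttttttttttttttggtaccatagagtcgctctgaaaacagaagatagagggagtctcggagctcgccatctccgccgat
Prkcd, chr14:30626209-30626458, minus strand: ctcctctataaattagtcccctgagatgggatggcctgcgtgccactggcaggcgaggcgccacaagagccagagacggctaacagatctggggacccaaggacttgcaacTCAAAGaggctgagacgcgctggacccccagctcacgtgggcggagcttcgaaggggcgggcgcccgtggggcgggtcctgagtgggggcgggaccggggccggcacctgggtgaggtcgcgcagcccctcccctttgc
Both strands of the 300 bases from 250 before to 50 after the start were searched in all 5 genes for the TCF/LEF cores CTTTGA or CTTTGT, and separately for the nuclear receptor element AGGTCA. The Prkcd match begins at position -139 from the start. Of 32851 RefSeq promoters of this length, 16.0% held CTTTGA, 18.7% held CTTTGT and 16.3% held AGGTCA. The GC content of these windows was 70.0% for Tcf7l2, 67.3% for Lef1, 59.7% for Ntng1, 60.3% for Rora and 69.3% for Prkcd, against a median of 52.7% over all promoters.

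At baseline, which asks what perinatal morphine left behind in adults without an immune challenge, Ntng1, Rora and Prkcd were lower in the hypothalamus of MOR-SAL than of SAL-SAL mice. All 5 genes had a negative log2FC, and 3 of 5 were called, all lower. Over all genes tested, 1.44% were called and 1.17% were called lower (416 and 338 of 28859). With the stricter count filter filterByExpr the same 3 genes were called, beside 186 of 18919 genes in all. The median log2FC of the 5 genes was -1.38, beside 0.07 over all genes tested.

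Prkcd showed the widest gap. In 11 SAL-SAL libraries it ran from 0 through a median of 176 to 1219 CPM, and in 14 MOR-SAL libraries from 0.551 through 17.4 to 128 CPM. All 14 MOR-SAL libraries lay below the SAL-SAL median, and 6 SAL-SAL libraries lay above every MOR-SAL library. That median is the value of the low-depth library SAL-SAL 4-3, which is also among these 6. The groups still overlapped, because 5 SAL-SAL libraries were in the MOR-SAL range or below it. The log2FC was -4.17 ± 0.66 (SE, adjusted p = 2.41e-04, edgeR), an 18.0-fold lower fitted mean.

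Rora ran from 54.7 through 201 to 617 CPM in SAL-SAL and from 62.7 through 104 to 238 CPM in MOR-SAL. Of the MOR-SAL libraries, 12 of 14 lay below the SAL-SAL median, and 5 SAL-SAL libraries exceeded all of them. Its log2FC was -1.27 ± 0.27 (SE, adjusted p = 0.00739, edgeR). Ntng1, the axonal adhesion gene, spanned 70.0 to 966 CPM in SAL-SAL with a median of 213, and 62.7 to 332 CPM in MOR-SAL with a median of 138. Its lower ends were alike in both groups and 4 SAL-SAL libraries exceeded every MOR-SAL library. The log2FC of Ntng1 was -1.38 ± 0.34 (SE, adjusted p = 0.0234, edgeR).

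The pair of TCF/LEF factors was not called. Lef1 had a median of 18.2 CPM in SAL-SAL (0 to 210) and of 8.29 CPM in MOR-SAL (0 to 51.4), with a log2FC of -2.11 ± 0.63 (SE, adjusted p = 0.0623, edgeR). Tcf7l2 had a median of 120 CPM in SAL-SAL (0 to 285) and of 40.3 CPM in MOR-SAL (0.678 to 457), with a log2FC of -1.04 ± 0.49 (SE, adjusted p = 0.248, edgeR). For Tcf7l2 the highest library of either group was MOR-SAL 16-1, at 457 CPM, so no SAL-SAL library stood above the MOR-SAL range.

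**Figure D1:**
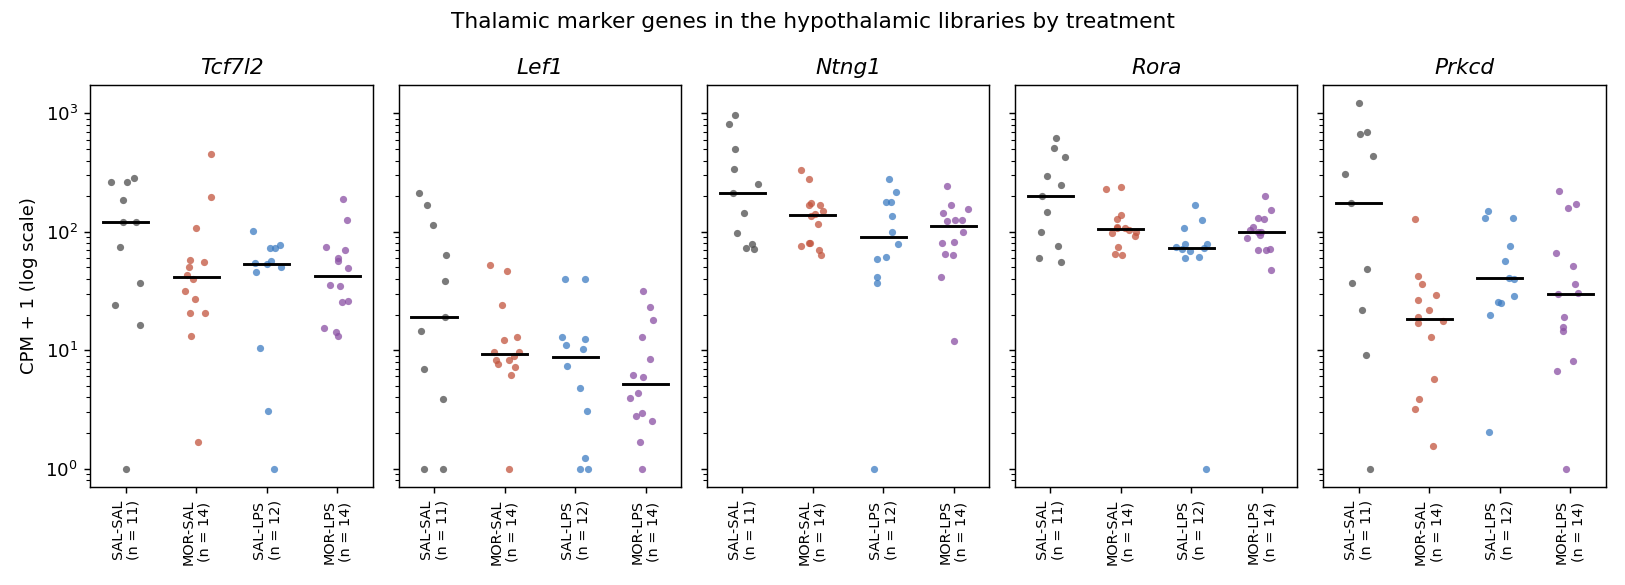
Level of each gene (CPM + 1, log axis) in every hypothalamic library, by treatment group; each point is 1 library and bars are group medians. The SAL-SAL points spread over the widest range for Prkcd, from 0 to 1219 CPM, and their upper part lies above the other groups.

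In CPM, the range within a hypothalamic group was widest in SAL-SAL for Lef1, Ntng1, Rora and Prkcd, and in MOR-SAL for Tcf7l2. In SAL-SAL the same libraries were high for all 5 genes. SAL-SAL 10-1 held 285 CPM of Tcf7l2, 210 of Lef1, 966 of Ntng1, 617 of Rora and 1219 of Prkcd. Its litter mate 10-3 and library 5-3 came next, with 701 and 669 CPM of Prkcd. Libraries 3-2 and 11-1 followed, at 435 and 306 CPM of Prkcd. At the low end, 9-4 held 20.9 CPM of Prkcd, 1-3 held 8.03 and the low-depth library 1-1 none, where a count of 0 allows up to 1.73 CPM (3 counts of its total, counting error only). Litter mates could also differ, and in litter 5 one SAL-SAL library held 669 CPM of Prkcd and the other 35.7.

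The high end of MOR-SAL was made of other libraries. MOR-SAL 16-1 was highest for Tcf7l2, Lef1, Ntng1 and Prkcd and reached 128 CPM of Prkcd, and 13-3 was highest for Rora at 238 CPM. In 4-3, a SAL-SAL library of 160755 counts, Tcf7l2 and Lef1 had no count, which allows up to 18.7 CPM, while Prkcd had 28 counts, or 176 CPM.

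In saline-reared mice the LPS comparison, SAL-LPS against SAL-SAL, asks for the response to the challenge. It uses the same SAL-SAL libraries as the baseline comparison, so the results are not independent. Rora and Ntng1 were lower after LPS and 2 of 5 genes were called, both lower, where 0.246% of all genes were called and 0.177% were called lower (71 and 51 of 28859). That count of 71 was 5 without SAL-SAL 10-1, 211 without SAL-SAL 9-4, 0 without litter 3 and 1 without litter 10. The median log2FC of the 5 genes was -1.51, beside 0.07 over all genes tested.

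Rora ran from 0 through 72.5 to 167 CPM in the 12 SAL-LPS libraries, and all 12 were below the SAL-SAL median. Its log2FC was -1.51 ± 0.29 (SE, adjusted p = 0.0118, edgeR). Ntng1 ran from 0 through 88.8 to 276 CPM, with 10 of 12 libraries below the SAL-SAL median and a log2FC of -1.51 ± 0.37 (SE, adjusted p = 0.0466, edgeR). The value of 0 in both genes is library 1-4, whose 7673 counts allow up to 391 CPM.

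Prkcd had a median of 39.5 CPM in SAL-LPS (1.03 to 150), with a log2FC of -2.71 ± 0.67 (SE, adjusted p = 0.0524, edgeR). For Lef1 the median was 7.83 CPM (0 to 39.2), with a log2FC of -2.68 ± 0.70 (SE, adjusted p = 0.0595, edgeR). Tcf7l2 had a median of 52.9 CPM (0 to 99.8) and a log2FC of -1.44 ± 0.53 (SE, adjusted p = 0.156, edgeR). All 12 SAL-LPS libraries lay below the SAL-SAL median for Tcf7l2 and Prkcd, and the ranges overlapped for each gene. The SAL-LPS libraries of litter 10, whose SAL-SAL mates were the highest, held 150, 55.5 and 18.9 CPM of Prkcd.

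Among LPS-treated mice the levels overlapped between the groups for each gene. MOR-LPS levels ran from 12.1 through 41.5 to 190 CPM for Tcf7l2, 0 through 4.17 to 30.5 for Lef1, 11.0 through 111 to 241 for Ntng1, 46.5 through 98.4 to 199 for Rora and 0 through 29.1 to 221 for Prkcd. The highest MOR-LPS libraries for Prkcd were 16-0 with 221 CPM, 15-1 with 170 and 18-1 with 159. Against SAL-LPS, the log2FC lay between -0.46 (Lef1) and 0.13 (Rora), with SE of 0.27 to 0.64 and adjusted p of 0.885 to 1 (edgeR). None of the 5 was called, or had an unadjusted p under 0.05, in edgeR, and none was called in DESeq2, where 1.03% of all genes were called in edgeR. With filterByExpr 6 of 18919 genes were called in this comparison.

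Among morphine-reared mice, MOR-LPS against MOR-SAL called none of the 5 genes in edgeR or DESeq2, in a comparison that called 6.27% of all genes in edgeR. Prkcd had the only positive log2FC, 1.26 ± 0.58 (SE, adjusted p = 0.191, edgeR), and was the 1 gene with an unadjusted p under 0.05, in both tools. Lef1 had a log2FC of -1.03 ± 0.61 (SE, adjusted p = 0.356, edgeR). Tcf7l2, Ntng1 and Rora lay between -0.42 and -0.11 on the log2 scale.

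The difference between these LPS responses, MOR minus SAL, was tested as an interaction. It was positive for all 5 genes and called for 2 of 5, both higher, while 3.8% of all genes were called and 2.2% were called higher (1098 and 636 of 28859). Prkcd differed by 3.98 ± 0.89 on the log2 scale (SE, adjusted p = 0.00729, edgeR) and Rora by 1.40 ± 0.38 (SE, adjusted p = 0.0229, edgeR). With filterByExpr Prkcd alone of the 5 was called, beside 132 of 18919 genes in all. The values of Ntng1 (1.23, adjusted p = 0.152, edgeR), Lef1 (1.64, adjusted p = 0.383, edgeR) and Tcf7l2 (1.03, adjusted p = 0.534, edgeR) did not pass. The interaction draws on the same SAL-SAL libraries as the baseline comparison.

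**Figure D2:**
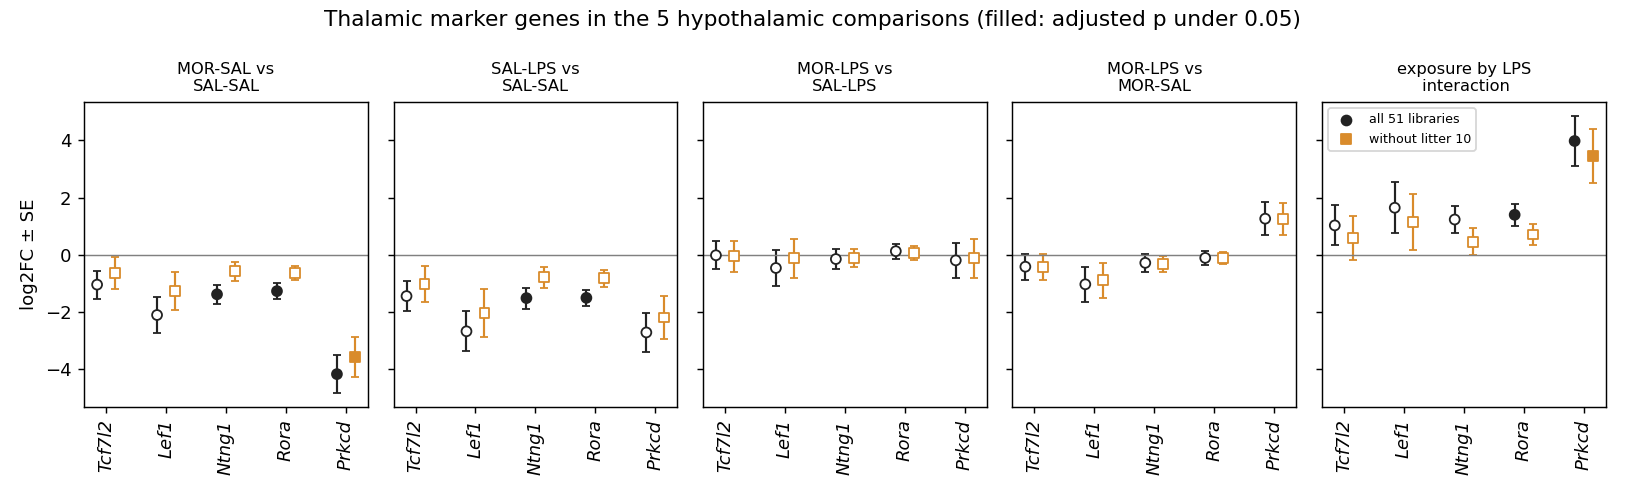
Fitted log2FC of the 5 genes in the 5 hypothalamic comparisons (edgeR), with bars of 1 SE; black circles use all 51 libraries, orange squares leave out litter 10, and filled symbols have an adjusted p under 0.05. Without litter 10, Prkcd is the only gene still called at baseline and in the interaction.

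These calls leaned on few libraries. Litter 10 holds the 2 highest SAL-SAL libraries and 3 SAL-LPS libraries. Without it, Prkcd alone was called at baseline (log2FC -3.56, adjusted p = 0.0164, edgeR), and the log2FC of Rora went to -0.64 (adjusted p = 0.211) and of Ntng1 to -0.57 (adjusted p = 0.456). In SAL-LPS against SAL-SAL none was then called, with Rora at -0.83 (adjusted p = 0.206) and Ntng1 at -0.79 (adjusted p = 0.378). The interaction kept Prkcd (3.44, adjusted p = 0.0350) and lost Rora (0.71, adjusted p = 0.358).

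Library 10-1 alone moved some of these calls. Without it, Ntng1 missed the threshold at baseline (log2FC -1.07, adjusted p = 0.0889, edgeR), as it did without SAL-SAL 10-3 (adjusted p = 0.0675), SAL-SAL 5-3 (adjusted p = 0.0574), litter 5 (adjusted p = 0.0501) or litter 15 (adjusted p = 0.0673). Rora missed it in SAL-LPS against SAL-SAL (-1.22, adjusted p = 0.0573, edgeR) and in the interaction (1.12, adjusted p = 0.0641, edgeR). Leaving out each of 51 libraries and each of 17 litters in turn, Prkcd was called at baseline in 51 and 17 fits, Rora in 51 and 16, Ntng1 in 48 and 14, Lef1 in 4 and 3, and Tcf7l2 in none. In SAL-LPS against SAL-SAL Rora was called in 50 and 15 fits, being lost also without litter 3 (adjusted p = 0.0794), Ntng1 in 26 and 4, Prkcd in 12 and 2, Lef1 in 5 and 0 and Tcf7l2 in none.

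Without the 3 low-depth libraries the calls grew. At baseline Lef1 was then called (log2FC -2.36, adjusted p = 0.0355, edgeR) beside Ntng1 (-1.57), Rora (-1.44) and Prkcd (-4.42), and the same 4 genes were called in SAL-LPS against SAL-SAL. Without the 3 libraries whose Y-linked genes went against the label, Ntng1 missed the threshold at baseline (log2FC -1.31, adjusted p = 0.0627, edgeR), while Rora and Prkcd were called. A limma-voom fit with a correlation within litters, estimated at -0.049, changed the test as well as the litter term. It called none of the 5 genes in any comparison and 11 genes in all at baseline. Its log2FC at baseline were -2.90 for Prkcd, -1.89 for Lef1, -1.34 for Tcf7l2, -0.94 for Ntng1 and -0.90 for Rora, with adjusted p of 0.200 to 0.345. With litter as a block in edgeR, SAL-LPS against SAL-SAL called none of the 5 and 10 genes in all. Rora was then at -1.16 (adjusted p = 0.0775, edgeR).

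Across hypothalamic libraries the 5 genes varied together, and those other than Rora did so in the striatum and hippocampus too (below). Over the 48 libraries that were not of low depth, Pearson's r of log2(normalized CPM + 1) ran from 0.63 for Tcf7l2 with Rora to 0.87 for Lef1 with Ntng1 in the 10 pairs, and Spearman's rho from 0.55 to 0.78. The largest Benjamini-Hochberg adjusted permutation p over the 10 pairs was 2e-05 for r and 6e-05 for rho, where 1e-05 is the smallest unadjusted p that 100000 resamples can give. Leaving out the 2 libraries farthest from the median left r between 0.62 and 0.81. Libraries of a litter are not independent, so these p-values are too small.

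The same correlations were computed within each group. In the 9 SAL-SAL libraries r was 0.91 to 0.99, and in the 14 MOR-SAL libraries 0.57 to 0.93. In the 11 SAL-LPS libraries it ran from -0.01 to 0.87, and in the 14 MOR-LPS libraries from 0.24 to 0.79. Spearman's rho was 0.95 to 1 in SAL-SAL, 0.25 to 0.91 in MOR-SAL, 0.12 to 0.89 in SAL-LPS and 0.24 to 0.81 in MOR-LPS. Without the 2 farthest libraries r was 0.89 to 0.99, 0.22 to 0.92, -0.24 to 0.78 and 0.25 to 0.83 in the same order. Without litter 10, chosen after seeing the data, r was 0.57 to 0.82 over 43 libraries, so the relation did not rest on that litter.

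Other genes followed the same order of libraries. Ranked by Spearman's rho with the mean standardized level of the 5 genes, Shox2 (rho 0.89) and Vav3 (0.87) came first among 13218 hypothalamic genes with a mean of at least 5 CPM. Plekhg1 (0.85), Vipr2 (0.82), RP24-488I7.2 (0.81), Ramp3 (0.80), Ppnr (0.78), Synpo2 (0.78), Abhd12b (0.77) and Smtn (0.77) followed, over 48 libraries. The median over all ranked genes was -0.01. Those of the named genes that also reached 5 CPM in the striatum had rho there of 0.70 (Ramp3) to 0.96 (Vav3). In the hippocampus it was 0.49 (Ramp3) to 0.82 (Plekhg1), and in the PFC -0.50 (Ramp3) to 0.51 (Vav3). Ppnr lies within an intron of Tcf7l2 on the same strand. Shox2 encodes a homeobox factor of the thalamus and Vipr2 a receptor of vasoactive intestinal peptide. Shox2, Plekhg1, Vipr2, Ramp3 and Synpo2 are also in the list of thalamic genes below. Earlier results of these data were known when that list was made, so the overlap is not an independent result.

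**Figure D3:**
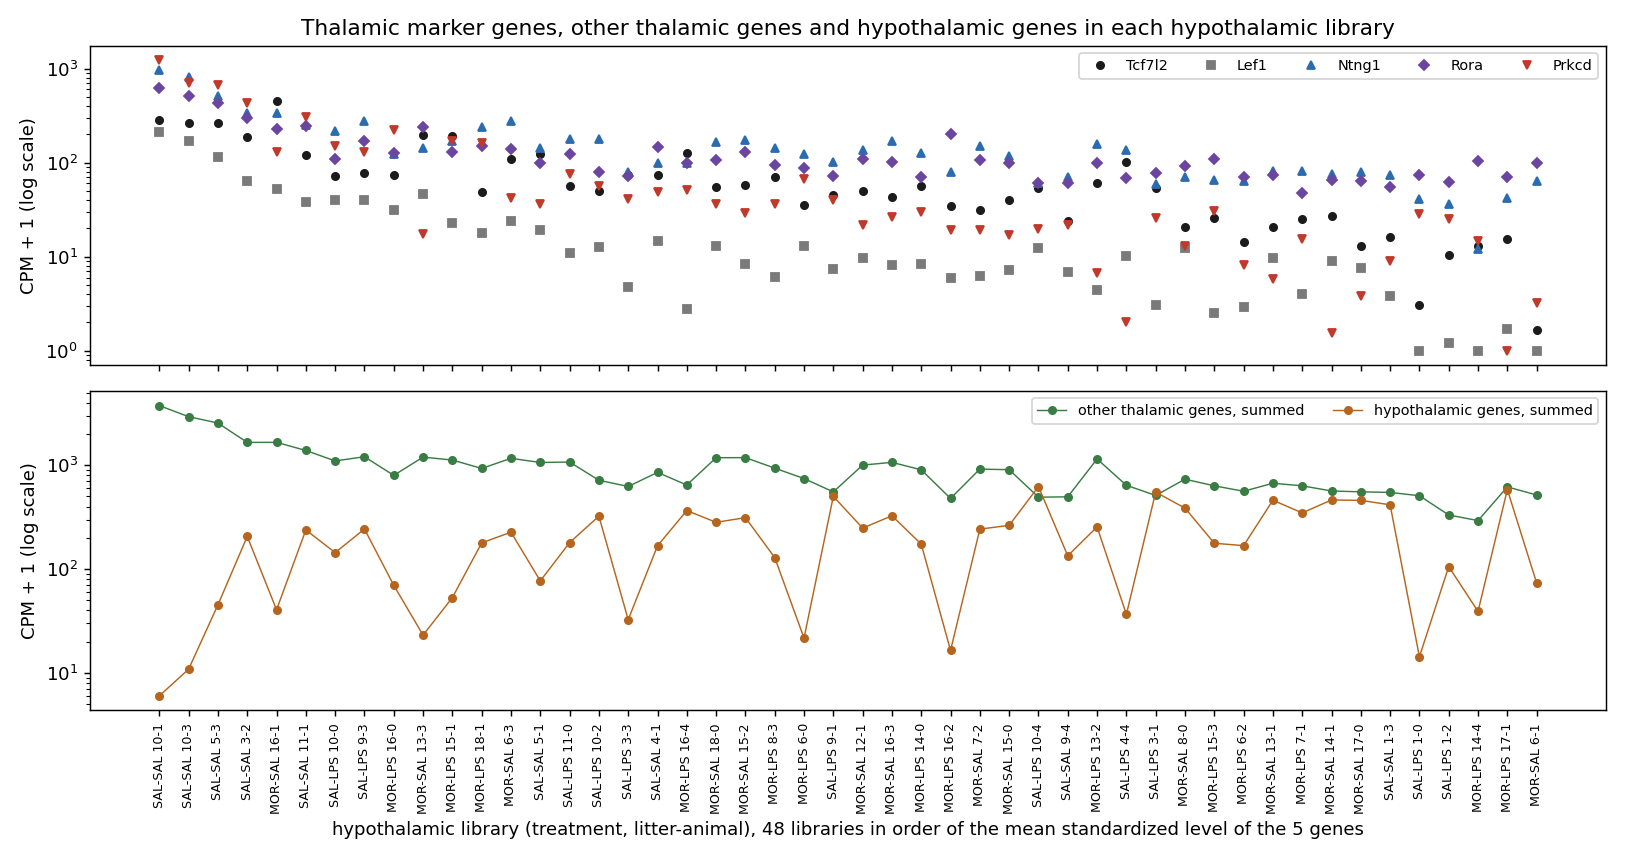
The 48 hypothalamic libraries in the order of their mean standardized level of the 5 genes; the upper panel gives the level of each gene and the lower panel the summed CPM of other thalamic genes and of hypothalamic genes, on log axes. The summed level of the other thalamic genes is highest, at 3749 CPM, in SAL-SAL 10-1, where the hypothalamic genes sum to 5.02 CPM.

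A list of 16 other thalamic genes, chosen like the 5 with earlier results of these data known, was read beside the 5. At baseline 7 of 16 were called lower in MOR-SAL and 1 was called higher, with a median log2FC of -1.19. Over all genes tested, 1.44% were called and 1.17% were called lower. Plekhg1 fell by 3.25 (adjusted p = 6.17e-04, edgeR), Tnnt1, a troponin gene, by 3.86 (adjusted p = 0.0105, edgeR) and Vipr2 by 2.08 (adjusted p = 0.00739, edgeR) on the log2 scale. Ramp3, Synpo2, Adarb1, which encodes an RNA-editing enzyme, and Amotl1 were also lower, with log2FC of -2.42, -2.16, -1.23 and -1.14. Necab1, a calcium-binding protein gene, was higher (1.04, adjusted p = 0.0114, edgeR). Slc17a6, the vesicular glutamate transporter of thalamic and hypothalamic excitatory neurons, had a log2FC of 0.32 (adjusted p = 0.618, edgeR).

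In SAL-LPS against SAL-SAL, 3 of the 16 were lower (Plekhg1 -2.66, Vipr2 -2.03 and Amotl1 -1.58) and the median log2FC was -1.31. Over all genes, 0.246% were called in that comparison and 0.177% were called lower. In the interaction 3 were higher (Tnnt1 4.10, Plekhg1 3.54 and Ramp3 3.33), Necab1 was lower (-1.05), and the median was 1.30. Over all genes, 3.8% were called in the interaction and 2.2% were called higher. MOR-LPS against SAL-LPS called none of the 16, with a median of -0.02. The counts of this list changed with the setting. At baseline 4 were lower with library size alone or without the 3 libraries whose Y-linked genes went against the label, 1 on log2(CPM + 1) and none on log2(CPM + 0.1) (limma). In SAL-LPS against SAL-SAL 1 was lower with filterByExpr or no sex term. In the interaction Necab1 was not called with DESeq2, filterByExpr, no count filter, DESeq2 size factors, library size alone or without those 3 libraries, and with filterByExpr 1 gene was higher. In the limma-voom fit with a correlation within litters none of the 16 was called in any comparison.

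The summed level of these 16 genes spanned its widest range in SAL-SAL. It ran from 452 through 1386 to 3749 CPM in SAL-SAL, 516 through 959 to 1660 in MOR-SAL, 130 through 588 to 1206 in SAL-LPS and 292 through 693 to 1147 in MOR-LPS. The 20 hypothalamic genes include neuropeptide genes that define the region. They summed to 5.02 through 133 to 503 CPM in SAL-SAL, 22.1 through 272 to 462 in MOR-SAL, 0 through 161 to 622 in SAL-LPS and 15.5 through 170 to 581 in MOR-LPS. In the SAL-SAL group the 2 libraries of litter 10 held 5.02 and 9.89 CPM of hypothalamic genes in all and 5-3 held 44.3, against 205 in 3-2 and 237 in 11-1. Of the 20 hypothalamic genes, 6 had a median of 0 in SAL-SAL, 2 in MOR-SAL, 1 in SAL-LPS and 5 in MOR-LPS.

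Of 19 hypothalamic genes tested at baseline, 15 had a positive and 4 a negative log2FC, with a median of 0.83. None was called in edgeR, and 2 had an unadjusted p under 0.05, Pomc (2.14) and Hdc (1.63). In the interaction 1 was called, Pomc, the precursor of melanocortin peptides, at -4.19, where 3.8% of all genes were called. The part of the punch position, or of the share of thalamic nuclei, in the results for the 5 genes was not tested.

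Markers of other cell types were also read. Choroid plexus genes summed to 2.95 through 39.8 to 327 CPM in SAL-SAL, and to at most 23.2 in MOR-SAL, 16.4 in SAL-LPS and 34.5 in MOR-LPS. Ttr, the transthyretin gene of the choroid plexus, was 6.02 lower on the log2 scale in MOR-SAL at baseline (adjusted p = 2.41e-04, edgeR). Folr1, a folate receptor gene, was 4.70 lower (adjusted p = 0.0181, edgeR) and was at a median of 0 in each group, as was Aqp1. The libraries with the most choroid plexus RNA, SAL-SAL 4-1 with 327 CPM and 1-3 with 225, were low for Prkcd, at 47.1 and 8.03 CPM.

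All 9 oligodendrocyte genes and all 6 astrocyte genes had a negative log2FC at baseline, with 1 of each called, the myelin gene Mobp (-2.20) and the glutamate transporter gene Slc1a2 (-1.23). Over all genes tested at baseline, 1.44% were called and 1.17% were called lower. Oligodendrocyte genes summed to 81.7 through 358 to 7684 CPM in SAL-SAL and 79.2 through 361 to 702 in MOR-SAL. The summed level of the neuronal genes overlapped among the groups, with medians of 2194 in SAL-SAL, 2419 in MOR-SAL, 1817 in SAL-LPS and 2238 in MOR-LPS. The part of glial and choroid plexus RNA in the results for the 5 genes was not tested.

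The partners and relatives of the 5 genes showed few calls at baseline. Of 16 TCF/LEF and Wnt genes 1 was called, the Wnt co-receptor Lrp5 (log2FC -3.68, adjusted p = 0.0172, edgeR), with a median of -0.17 over the list. This stands beside 1.44% of all genes called at baseline. Ctnnb1, which encodes beta-catenin, had a log2FC of -0.30 (adjusted p = 0.424, edgeR), and Tcf7l1, another TCF factor, had -0.39 (adjusted p = 0.932, edgeR). Lrp5 was the only one of these genes called in MOR-LPS against MOR-SAL (3.10) and in the interaction (4.13), where 6.27% and 3.8% of all genes were called.

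None of the 4 netrin-G and ligand genes was called in any of the 5 comparisons, and Lrrc4c, the gene of the netrin-G1 ligand, had a log2FC of 0.43 at baseline (adjusted p = 0.161, edgeR). Of the 4 ROR and REV-ERB genes none was called in any comparison, and Rorb stood at -0.69 at baseline (adjusted p = 0.275, edgeR). Of the 8 other protein kinase C genes 1 was called in 1 comparison, Prkca in MOR-LPS against MOR-SAL (1.00, adjusted p = 0.0109, edgeR), where 6.27% of all genes were called. At baseline they ran from -0.99 (Prkch) to 0.14 (Prkce).

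Neighbouring brain nuclei were read in the same way. All 6 habenular genes had a positive log2FC at baseline, from 0.08 to 4.44, and none was called in edgeR, with 2 at an unadjusted p under 0.05. Of 5 genes of the reticular thalamus and zona incerta, 2 had a positive and 3 a negative value, and none was called in edgeR, with 1 at an unadjusted p under 0.05.

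The same 5 genes were then read in the other regions. The methods of the study describe the same library preparation and counting for every region. Of the 46403 genes, 22255 had counts in all 4 regions. Each of the 5 genes was detected outside the hypothalamus, and by pooled median the hypothalamus was not where any of the 5 was highest. Over 55 hippocampal libraries the lowest, median and highest levels were 0, 33.8 and 309 CPM for Tcf7l2, 0, 11.2 and 146 for Lef1, 82.5, 282 and 974 for Ntng1, 237, 1136 and 3649 for Rora and 0.524, 9.53 and 226 for Prkcd. Over 48 PFC libraries they were 0, 7.43 and 77.0 for Tcf7l2, 0, 0 and 14.6 for Lef1, 13.5, 69.7 and 187 for Ntng1, 638, 1843 and 4182 for Rora and 0, 13.2 and 97.6 for Prkcd. Lef1 had no count in 25 of 48 PFC libraries.

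Pooled over the 4 treatments, striatal levels were the highest of the 4 regions by median. Among SAL-SAL libraries alone the hypothalamic median was above the striatal one for Prkcd (176 and 77.8 CPM) and Tcf7l2 (120 and 109 CPM). Over 54 libraries they were 2.56, 107 and 637 CPM for Tcf7l2, 0.746, 61.6 and 348 for Lef1, 28.5, 425 and 2226 for Ntng1, 547, 3110 and 5507 for Rora and 1.05, 78.0 and 560 for Prkcd. The hypothalamic medians were 49.3, 7.38, 124, 98.6 and 28.8 CPM in the same order. By pooled median, Tcf7l2 and Prkcd were therefore in the order striatum, hypothalamus, and then hippocampus and PFC, with hippocampus above PFC for Tcf7l2 and below it for Prkcd. Lef1 followed the order striatum, hippocampus, hypothalamus, PFC, as did Ntng1. These orders did not all hold in SAL-SAL alone, where the Lef1 median was 18.2 CPM in the hypothalamus and 13.9 in the hippocampus, and that of Prkcd 31.3 CPM in the hippocampus and 2.64 in the PFC. Rora ran from striatum through PFC and hippocampus to the hypothalamus. All ranges overlapped between regions except that of Rora in the hypothalamus and PFC, where the hypothalamic highest of 617 lay below the PFC lowest of 638.

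**Figure D4:**
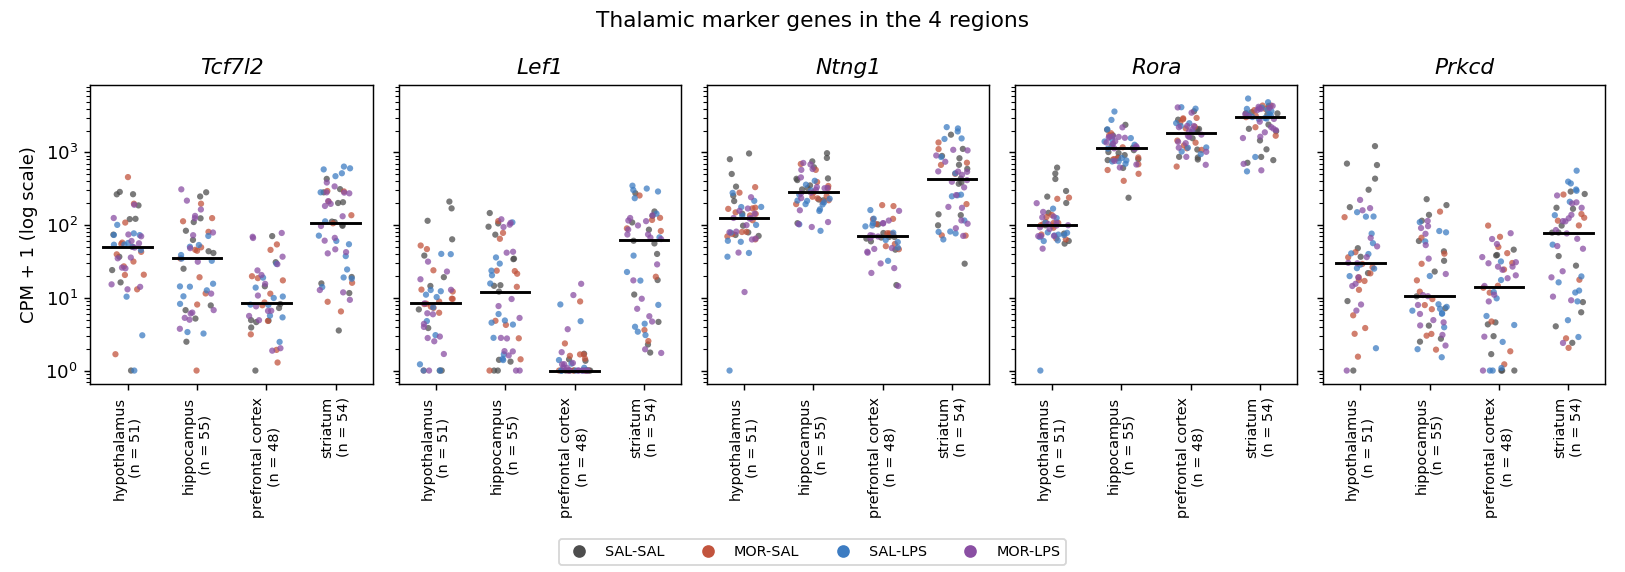
Level of each gene (CPM + 1, log axis) in every library of the 4 regions; points are libraries coloured by treatment and bars are medians over the region. Pooled over treatments, striatal medians are highest, from 61.6 CPM for Lef1 to 3110 CPM for Rora, and hypothalamic libraries hold the single highest value of Prkcd, 1219 CPM.

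Fitted over all 208 libraries, with treatment and sex as terms, the hypothalamus differed from the hippocampus in 2 of 5 genes (62.1% of all genes were called). Rora was lower by 3.42 ± 0.18 and Ntng1 by 1.22 ± 0.20 on the log2 scale (SE, adjusted p = 2.68e-46 and 2.33e-08, edgeR). Tcf7l2 (0.28, adjusted p = 0.502), Prkcd (0.75, adjusted p = 0.0843) and Lef1 (-0.87, adjusted p = 0.0540) did not pass in edgeR. Among SAL-SAL libraries alone Prkcd was called against the hippocampus (2.10, adjusted p = 0.0333, edgeR), Ntng1 was not (-0.66, adjusted p = 0.209, edgeR) and Lef1 stood at 0.41 (adjusted p = 0.692, edgeR). Against the PFC 5 of 5 genes were called (63.3% of all genes): Lef1 at 4.19, Tcf7l2 at 2.17, Prkcd at 1.91 and Ntng1 at 0.79 were higher in the hypothalamus and Rora, at -4.25, was lower. Against the striatum 5 of 5 were called (63.7% of all genes), all lower, from -0.98 for Prkcd (adjusted p = 0.0226) to -4.82 for Rora (adjusted p = 2.91e-62) in edgeR. Among SAL-SAL libraries alone Prkcd turned to 1.55 (adjusted p = 0.118), and Tcf7l2 (-0.34, adjusted p = 0.706) and Lef1 (-0.54, adjusted p = 0.598) were not called in edgeR. Prkcd was also lost with library size alone (-0.72, adjusted p = 0.102, edgeR), with the span trend removed (-0.84, adjusted p = 0.0607, edgeR) and with the animal as a block (-0.65, adjusted p = 0.143, limma-voom). All genes tested had a median log2FC of 0.52, 0.55 and 0.47 in these comparisons. With most genes called between regions, the counts of 5 do not set these genes apart.

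Gene length moved with these differences. The log2 ratio of the hypothalamus to another region fell as the gene span grew, with Spearman's rho of -0.51 for the hippocampus, -0.41 for the PFC and -0.67 for the striatum over 11080 genes, given as a description. The median log2 ratio to the striatum was 1.21 in the genes of up to 10.6 kb and -1.12 in those of 93.0 kb or more, the shortest and the longest of 5 groups of equal size. Rora spans 734.5 kb, Ntng1 364.0 kb, Tcf7l2 191.8 kb, Lef1 113.9 kb and Prkcd 30.9 kb.

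With that trend removed from each library, an alternative chosen after seeing the data, several values changed side. Ntng1 was then 0.69 higher in the hypothalamus than in the hippocampus (adjusted p = 7.42e-04, edgeR) and Tcf7l2 1.58 higher (adjusted p = 1.52e-06, edgeR). Against the striatum Tcf7l2 stood at 0.21 and Ntng1 at 0.17, neither called, and 2 of 5 genes were called, Rora (-1.61) and Lef1 (-1.52). Rora stayed lower in the hypothalamus than in each other region, by 0.66, 1.49 and 1.61 on the log2 scale for hippocampus, PFC and striatum. Why the regions differ with gene span was not tested.

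Within the other regions few of these genes were called between treatments, with log2FC from -1.81 to 2.84. In 60 tests of the 5 genes, over 3 regions and 4 comparisons, 1 was called and 4 had an unadjusted p under 0.05 (edgeR). The call was Ntng1 in the hippocampus of SAL-LPS against SAL-SAL mice, at -1.04 ± 0.26 (SE, adjusted p = 0.0274, edgeR). It ran from 105 through 415 to 974 CPM in 13 SAL-SAL libraries and from 82.5 through 210 to 406 CPM in 14 SAL-LPS libraries. No SAL-LPS library of the 14 reached the SAL-SAL median, and 7 SAL-SAL libraries were above every SAL-LPS library. The call was lost with a stricter count filter (adjusted p = 0.0817), with a correlation within litters (adjusted p = 0.0604, limma-voom) and with litter as a block (adjusted p = 0.153), in a range of 0.0192 (DESeq2) to 0.153 over the alternatives.

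The share of all genes called in the hippocampus was 0% for MOR-SAL against SAL-SAL (2272 at an unadjusted p under 0.05 in edgeR, 7 called by DESeq2), 2.73% for MOR-LPS against SAL-LPS, 2.55% for SAL-LPS against SAL-SAL with 1.22% lower, and 0.467% for MOR-LPS against MOR-SAL. The members' call is 1 of 5 in the third of these. Those totals rested on the count filter, since 602, 563 and 103 genes in the last 3 comparisons became 1, 2 and 9 with filterByExpr, and 563 became 6 with litter as a block. In the PFC the shares were 0%, 0.0046%, 0% and 0.0184% in the same order, where edgeR gave 2185 and 2752 genes at an unadjusted p under 0.05 in the comparisons with none called, and DESeq2 called 16 and 71. In the striatum they were 0%, 0%, 0.0128% and 1.39%, where edgeR gave 2683 and 2628 genes at an unadjusted p under 0.05, and DESeq2 called 6 and 98. In both regions none of the 5 genes was called by either tool. The smallest adjusted p of the 5 was 0.292 in the PFC and 0.465 in the striatum (edgeR).

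At baseline Prkcd had medians of 31.3 CPM in SAL-SAL and 9.89 CPM in MOR-SAL hippocampus, 2.64 and 18.6 CPM in the PFC and 77.8 and 106 CPM in the striatum. Rora had medians of 981 and 822 CPM in the hippocampus, 1797 and 1796 in the PFC and 2111 and 3507 in the striatum. The groups overlapped for both genes in each of the 3 regions. None of the 16 other thalamic genes was called in any of the 12 comparisons of these regions (edgeR).

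The baseline difference in the hypothalamus was then set against the mean of the same difference in the other 3 regions. It was lower in the hypothalamus for Prkcd by 4.20 (adjusted p = 0.00638, edgeR) and for Rora by 1.46 (adjusted p = 0.0248, edgeR) on the log2 scale. So 2 of 5 genes were called, both lower, where 1.11% of all genes were called and 0.646% were called lower. Ntng1 (-1.50, adjusted p = 0.0996), Lef1 (-3.01, adjusted p = 0.138) and Tcf7l2 (-1.01, adjusted p = 0.906) did not pass in edgeR. A limma-voom fit with a correlation within animals called none of the 5, with Prkcd at -3.07 (adjusted p = 0.123). For MOR-LPS against SAL-LPS the same contrast called none of the 5 (edgeR), with values from -0.45 to 0.42, where 1.14% of all genes were called.

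The level of the 5 genes in an animal's hypothalamus was set beside that in its other regions. For the 6 pairs of regions, with 31 to 41 animals each, no correlation of the mean standardized level passed the Benjamini-Hochberg adjustment. The hypothalamus and hippocampus of 34 animals had r = 0.34 (permutation p = 0.0456, adjusted 0.193) and rho = 0.33 (adjusted permutation p = 0.178), and r = 0.18 without the 2 farthest animals. A relation of this size was not resolved with these numbers of animals. Members correlated with each other above 0.5 (Pearson's r) in 6 of 10 pairs in the striatum and in the hippocampus, and in 0 of 10 in the PFC. The pairs above 0.5 were those without Rora, at 0.84 to 0.95 in the striatum and 0.64 to 0.86 in the hippocampus. Pairs with Rora ran from 0.13 to 0.30 in the striatum and from 0.02 to 0.11 in the hippocampus.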

How the data were processed

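Reads were trimmed (Trim Galore 0.6.7), aligned to mm10 (STAR 2.7.10a) and counted per gene by the authors, and the submitters' processing notes also name HTSeq 0.12.4 and DESeq2 1.40.2. The deposited counts are whole reads per gene for 46403 genes in each of 4 regions. The deposited CPM values, made by the authors from the same counts, omit 37 mitochondrial genes and could be recomputed from the counts. Each column was matched to a sample by its labels, and 0 columns were left unused. Total counts ran from 227025 to 24071488 in the hippocampus (55 libraries), 3056648 to 21988203 in the PFC (48) and 5954700 to 92945090 in the striatum (54).

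Genes with a total count above 10 in a region were normalized by TMM and fitted with edgeR 4.0.16 (R 4.3.3) on the 4 treatments and sex, with glmQLFit and glmQLFTest, for all 5 comparisons in the hypothalamus and the 4 pairwise ones elsewhere. Comparisons between regions used all 208 libraries in 1 fit. Calls used a Benjamini-Hochberg adjusted p under 0.05 over all genes tested. Alternatives were DESeq2 1.42.0, filterByExpr, no count filter, DESeq2 size factors, library size alone, no sex term, litter as a block, limma 3.58.1 (voom with a correlation within litters or animals, or on log2(CPM + 1) and log2(CPM + 0.1)), and leaving out libraries or litters. The trend over gene span was chosen after seeing the data, as were the relations in the other regions, between regions and without litter 10. The 5 genes and the gene lists were chosen with earlier results of these data known. Named genes were the 5 genes, the 10 genes ranked most like them and, in each list, up to 6 called genes by adjusted p. Listed genes named without a call were chosen after their values were seen. Correlations used permutation tests with 100000 resamples (scipy 1.17.1). Positions are from GENCODE M21 and promoter sequences from RefSeq. The scripts were tested on simulated data, where the reported edgeR fit recovered most changed genes but called more unchanged genes than its threshold allows, nearly all of them with few counts, so counts over all genes hold false calls. The fit with filterByExpr stayed within the threshold there.

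Samples of different regions with the same replicate label were taken as the same animal (69 animals in the animal-block fit). Deviations of such samples from their group means correlated with medians of 0.008 to 0.091 over the 6 pairs of regions. A count of 0 allows up to 3 counts of a library's total, which covers counting error only. Low-depth libraries limit the precision of genes with few counts.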

Additional observations from a re-analysis of the deposited data

Results flagged for a closer look

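In the hypothalamus the LPS response of morphine-reared mice differed from that of saline-reared mice by 1.40 for Rora and by 3.98 for Prkcd on the log2 scale, by the interaction test in edgeR (adjusted p = 0.0229 and 0.00729). Without litter 10 the value of Rora was 0.71 (adjusted p = 0.358, edgeR) and that of Prkcd 3.44 (adjusted p = 0.0350, edgeR). With filterByExpr Prkcd was called and Rora was not. A limma-voom fit with a correlation within litters called neither (1.03, adjusted p = 0.336 and 3.01, adjusted p = 0.369).

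The baseline difference between MOR-SAL and SAL-SAL in the hypothalamus differed from the mean of the other 3 regions by -1.46 for Rora and by -4.20 for Prkcd on the log2 scale (edgeR, adjusted p = 0.0248 and 0.00638). Regions share animals, and a limma-voom fit with a correlation within animals called neither (-1.09, adjusted p = 0.925 and -3.07, adjusted p = 0.123).

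A single library stood far from the rest of its group in 2 of 15 gene and group pairs with 4 to 10 libraries (Dixon's test), where chance gives about 5%. No hypothalamic group was tested, since each held more than 10 libraries. In the PFC, Tcf7l2 was at 69.6 CPM in SAL-SAL 9-4 and at most 29.9 CPM in the other libraries of the group. Lef1 was at 7.11 CPM in SAL-LPS 1-0 of the PFC and at most 3.78 CPM in the others. It had no count in 5 of those 10 libraries, so the 5% need not hold there. Neither library was left out of any fit for this.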

How the results depend on the processing

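At baseline and in SAL-LPS against SAL-SAL none of the 5 genes changed direction under any setting. Outside the leave-one-out fits, single-gene values were the same in 427 cases, weaker in 54, stronger in 15 and reversed in 21. Members called at baseline were 3 in the reported fit, 2 with library size alone (Ntng1 lost) or without sex-conflict libraries, 4 (Lef1 added) with no count filter, no sex term or without low-depth libraries, and 0 with a correlation within litters (limma-voom) and on log2(CPM + 1) and log2(CPM + 0.1). In SAL-LPS against SAL-SAL the 2 calls became 1 with filterByExpr or no sex term, 3 (Prkcd added) with DESeq2, DESeq2 size factors or library size alone, 4 with no count filter or without low-depth libraries, and 0 with a correlation within litters, litter as a block and both limma fits on CPM. The 2 calls of the interaction became 1 with filterByExpr and 0 in the same limma fits. The 1 hippocampal call became 0 with filterByExpr, a correlation within litters and litter as a block. Against the striatum the 5 calls became 2 with the span trend removed and 2 in SAL-SAL libraries alone. The baseline difference set against the other regions had 2 calls, 4 with the span trend removed and 0 with a correlation within animals. The cause of these changes was not tested.

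Leaving out 1 library gave 2 to 4 members called at baseline, 0 to 4 in SAL-LPS against SAL-SAL, and 1 to 2 in the interaction. Leaving out 1 litter gave 1 to 4, 0 to 3 and 1 to 2. The remaining hypothalamic comparisons stayed at 0.

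Reversed values of MOR-LPS against SAL-LPS, all uncalled, were for Tcf7l2 0.066 (DESeq2), 0.040 (size factors), 0.15 (library size), 0.014 (without sex-conflict libraries), 0.41 (voom), 0.57 and 0.88 (log2 of CPM plus 1 and 0.1), for Prkcd 0.018 (no sex term) and 0.12 (voom), for Ntng1 0.48 and 0.76 (CPM plus 1 and 0.1) and for Lef1 0.26 (CPM plus 0.1). MOR-LPS against MOR-SAL turned for Tcf7l2 to 0.18 (voom), 0.086 and 0.16 (CPM plus 1 and 0.1). Between regions, removing the span trend gave Ntng1 0.69 against the hippocampus and Tcf7l2 0.21 and Ntng1 0.17 against the striatum, and SAL-SAL libraries alone gave Lef1 0.41 against the hippocampus and Prkcd 1.55 against the striatum. For MOR-LPS against SAL-LPS set against the other regions, Tcf7l2 was 0.010 with a correlation within animals.

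With the animal as a replicate block (limma-voom, 206 libraries of 69 animals), 3, 5 and 4 of the 5 genes were called against hippocampus, PFC and striatum. Prkcd was then called against the hippocampus (1.13, adjusted p = 0.00900) and lost against the striatum (-0.65, adjusted p = 0.143).

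Genes called in all at baseline numbered 416, from 11 (limma-voom with a correlation within litters) to 916 (no sex term). For MOR-LPS against SAL-LPS they numbered 298 (2 to 740), for SAL-LPS against SAL-SAL 71 (0 to 128), for MOR-LPS against MOR-SAL 1809 (160 to 2867) and for the interaction 1098 (2 to 1305). In the hippocampus they numbered 602 (1 to 1423) for MOR-LPS against SAL-LPS, 563 (2 to 1207) for SAL-LPS against SAL-SAL and 103 (0 to 202) for MOR-LPS against MOR-SAL, which in the striatum called 325 (30 to 717). Leaving out 1 library gave 216 (without MOR-SAL 15-2) to 645 (without SAL-SAL 1-3) at baseline, 2 (without MOR-LPS 6-0) to 329 in MOR-LPS against SAL-LPS and 5 to 211 in SAL-LPS against SAL-SAL. Leaving out 1 litter gave 85 (without litter 10) to 774 (without litter 1) at baseline, at least 0 (without litter 14) in MOR-LPS against SAL-LPS, 809 (without litter 16) in MOR-LPS against MOR-SAL and 669 (without litter 10) in the interaction. With library size alone, higher and lower calls were 127 and 250 at baseline (78 and 338 with TMM), 250 and 166 in MOR-LPS against SAL-LPS (129 and 169), 20 and 100 in SAL-LPS against SAL-SAL (20 and 51), and 244 and 145 for baseline set against the other regions (153 and 212). The median log2FC of all genes at baseline moved from 0.07 to 0.19. On log2(CPM + 1) and log2(CPM + 0.1) the balance at baseline turned, with 79 higher and 8 lower, and 54 and 2, and medians of 0.25 and 0.52.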
